A study of Mus musculus with 6 samples.

Results

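The mitotic genes examined here are 35 genes that act between entry into mitosis and the final separation of the daughter cells, among them mitotic cyclins and kinases, centromere proteins, spindle motors and the proliferation marker Mki67. Each was looked up by its symbol in the array's platform annotation, and the probe set with the highest mean signal over the 6 arrays stood for the gene. Of the 35 genes, 34 had a probe set that carries that single symbol, out of 18193 genes on the array. Ccnb1, which encodes cyclin B1, had none by this rule and was not analysed here.

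RNA came from lung cells of Bmi1 mutant mice (3 arrays), whose genotype the labels also give as Bmi1 null, and of Bmi1 wild-type mice (3 arrays). All were females of 4 months on a mixed Bl6/129 background. Dispase and collagenase freed the cells from the lungs, and live cells negative for CD31, a marker of endothelium, and for CD45, a marker of blood cells, were sorted without culture. Amplified cDNA was hybridised to Affymetrix Mouse Genome 430 2.0 arrays. The labels do not say which part of Bmi1 is missing or whether an array came from 1 mouse or a pool, so p values speak only for the spread among these 6 arrays.

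Cyclin-dependent kinase 1 with A- and B-type cyclins drives a cell into mitosis, kinesins and microtubule-binding proteins build the spindle, and a checkpoint at the kinetochores holds back chromosome separation until every chromosome is attached. The anaphase-promoting complex then marks cyclins for destruction, and a central spindle directs cytokinesis. Most of these genes are transcribed in the later part of the cell cycle, so their RNA is scarce in resting tissue, and most cells of the adult lung are resting. Bmi1 is a subunit of Polycomb repressive complex 1 and is known for silencing Ink4a and Arf, which restrain the cell cycle.

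As a check of the labels, Bmi1 itself read 1276, 1498 and 1565 in the mutant arrays, against 996, 979.8 and 1164 in the wild-type arrays, by its brighter probe set (two-sided exact permutation p = 0.1, the smallest that 3 arrays against 3 allow). The other probe set had an exact permutation p of 0.7. The Bmi1 signal was thus not lower in the arrays labelled mutant, a probe outside the missing part checks nothing, and every direction below rests on the labels. Ptprc, which encodes CD45, read 5048 to 6708 in the mutant arrays and 6639 to 8507 in the wild-type arrays, and Pecam1, which encodes CD31, read 2691 to 3185 in the mutant arrays and 1907 to 2829 in the wild-type arrays. RNA of both genes was therefore present in each array. In such bulk samples, fewer cells of a type and less RNA per cell cannot be told apart. Log2 signals correlated at 0.962 to 0.974 between arrays of one genotype and at 0.952 to 0.968 between genotypes.

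Nearly every mitotic gene had its lower mean in the Bmi1 mutant arrays, by about 0.87 on the log2 scale at the median, but no single one passed the test. Differences are of log2(signal + 16), mutant minus wild type, from a limma fit over all 18193 genes, and a gene was called at a Benjamini-Hochberg adjusted p under 0.05. By that limma fit, 0 of 34 members were called lower, against a background of 0.511% of all genes, and 0 were called higher, against 0.418%. At an unadjusted limma p under 0.05, 20 of 34 members (58.8%) were lower and 0 higher, where 7.03% of all genes were lower at that level. Of the 34, 33 (97.1%) had a difference below 0, against 49.2% of all genes. The median difference was -0.87, while that of all genes was 0.006. In 16 members (47.1%) each mutant array lay below each wild-type array, against 10.0% of all genes, and the reverse order occurred in 0.

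**Figure D1:**
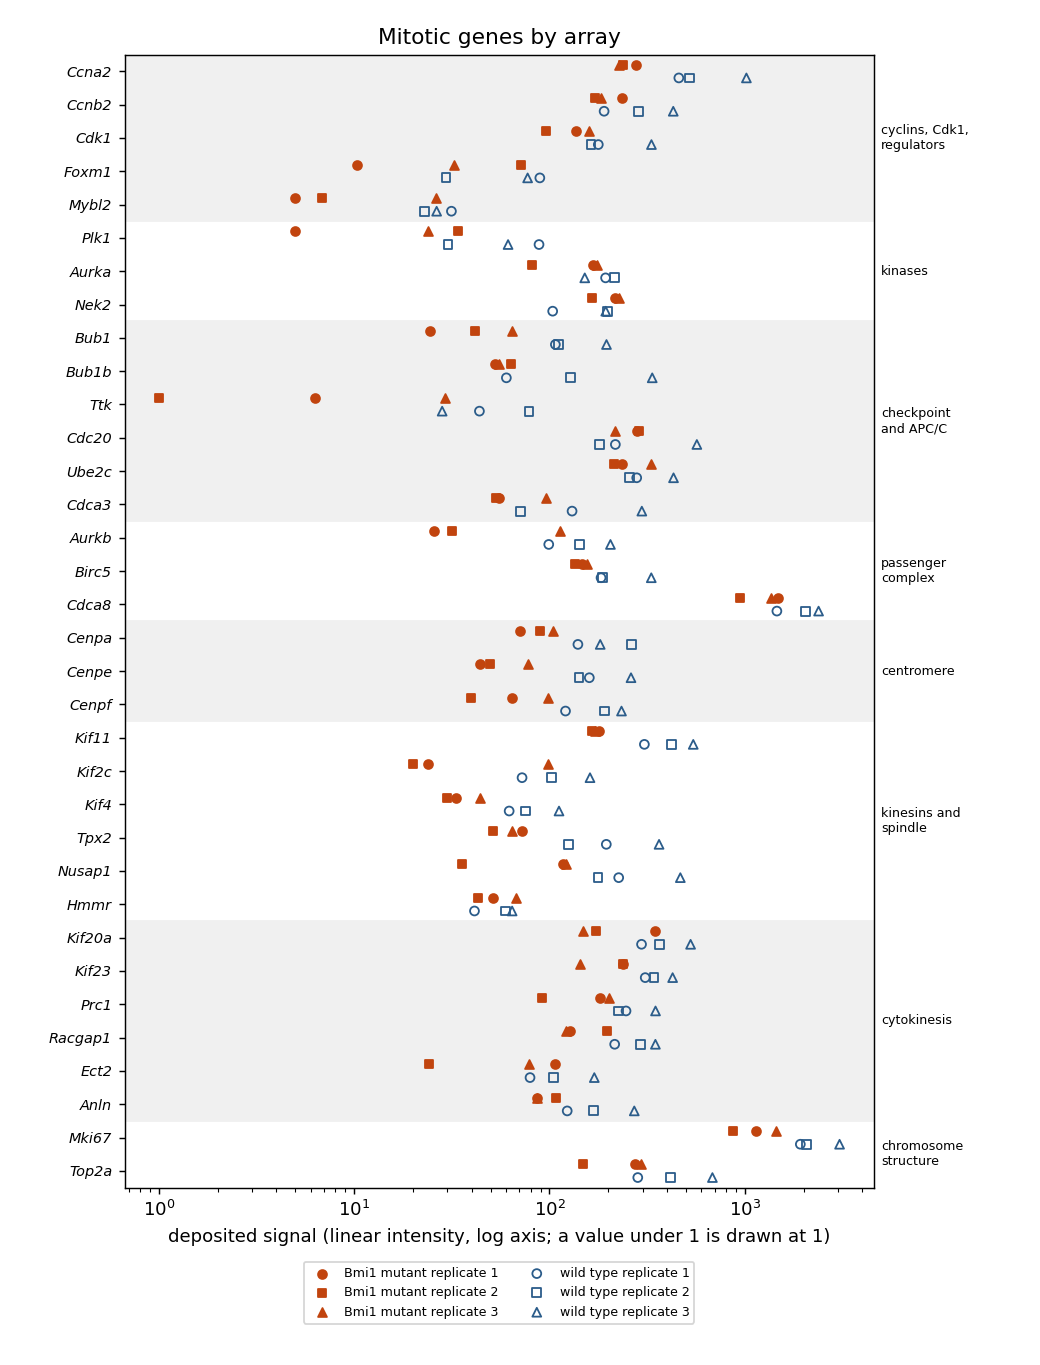
Deposited signal (x axis, log scale) of the 34 measured mitotic genes, grouped by role, with filled symbols for the 3 Bmi1 mutant arrays above open symbols for the 3 wild-type arrays of the same gene, and the symbol shape giving the replicate number. The open triangle of wild-type replicate 3 is the rightmost point in 26 of the 34 genes.

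The mean of log2(signal + 16) over the 34 genes was 6.88, 6.71 and 7.14 in mutant replicates 1 to 3, against 7.50, 7.63 and 8.20 in wild-type replicates 1 to 3. The genotypes did not overlap in that mean. Wild-type replicate 3 stood above the other wild-type arrays and held the highest signal in 26 of the 34 genes (76.5%), where 16.2% of all genes had their highest signal in it. Without it, the median difference of the members was -0.64, 31 of 34 lay below 0 and 12 had an unadjusted limma p under 0.05, against 5.34% of all genes lower at that level. Mutant replicate 2 held the lowest signal of the 6 arrays in 18 members and mutant replicate 1 in 9.

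Mitotic genes are known to share promoter elements, a CCAAT box bound by the factor NF-Y and the cell cycle genes homology region (CHR) bound by the MuvB complex. Through the CHR, cells at rest keep these genes off. The promoters of the 3 members with the smallest p (Kif11, Cenpe, Bub1) and of the 2 with the largest (Cdc20, Hmmr) are shown to set the sequences beside those differences. Each is the 250 bases before the annotated start, 5′ to 3′ in the direction of the gene, from RefSeq on GRCm38.p6. Capitals mark the letters CCAAT of the box, and the CHR cores TTTGAA or else TTTAAA, on either strand. A box on the opposite strand thus reads ATTGG, and the first CHR core reads TTCAAA there.
Kif11, chr19:37376132-37376381, plus strand: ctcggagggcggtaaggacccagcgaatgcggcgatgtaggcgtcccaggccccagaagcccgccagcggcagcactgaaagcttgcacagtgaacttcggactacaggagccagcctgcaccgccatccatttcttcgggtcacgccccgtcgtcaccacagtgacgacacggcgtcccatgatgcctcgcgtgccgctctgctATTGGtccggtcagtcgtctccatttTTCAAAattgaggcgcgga
Cenpe, chr3:135212313-135212562, plus strand: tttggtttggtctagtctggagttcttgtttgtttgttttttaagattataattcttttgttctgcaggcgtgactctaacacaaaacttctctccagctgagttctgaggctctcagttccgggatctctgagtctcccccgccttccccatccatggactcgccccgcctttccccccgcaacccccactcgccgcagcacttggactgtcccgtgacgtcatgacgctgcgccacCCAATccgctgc
Bub1, chr2:127831860-127832109, minus strand: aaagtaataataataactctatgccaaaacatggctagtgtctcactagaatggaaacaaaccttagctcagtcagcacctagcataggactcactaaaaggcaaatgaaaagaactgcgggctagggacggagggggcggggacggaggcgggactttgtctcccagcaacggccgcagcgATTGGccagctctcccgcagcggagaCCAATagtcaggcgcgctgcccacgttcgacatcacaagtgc
Cdc20, chr4:118437344-118437593, minus strand: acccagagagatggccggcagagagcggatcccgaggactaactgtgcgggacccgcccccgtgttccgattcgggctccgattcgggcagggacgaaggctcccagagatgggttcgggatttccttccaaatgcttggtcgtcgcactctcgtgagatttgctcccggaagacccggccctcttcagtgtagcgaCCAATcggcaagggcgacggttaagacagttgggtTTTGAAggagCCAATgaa
Hmmr, chr11:40733438-40733687, minus strand: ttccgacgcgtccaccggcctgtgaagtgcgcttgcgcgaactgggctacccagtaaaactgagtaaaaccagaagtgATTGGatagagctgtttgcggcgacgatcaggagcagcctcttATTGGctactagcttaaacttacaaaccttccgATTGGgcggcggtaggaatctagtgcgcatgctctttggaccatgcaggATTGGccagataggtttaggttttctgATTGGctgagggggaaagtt

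The Kif11 promoter held 1 CCAAT and 1 TTTGAA, that of Cenpe 1 CCAAT and that of Bub1 2 CCAAT. The Cdc20 promoter held 2 CCAAT and 1 TTTGAA, and that of Hmmr 5 CCAAT. The Cdc20 and Hmmr promoters held more matches than those of Kif11, Cenpe and Bub1. In the other order, the Top2a promoter held 6 CCAAT and 2 TTTGAA at a log2 difference of -0.86, and that of Nek2 1 CCAAT at 0.31. A relation of matches to differences over the members was not tested. Of the measured members, 29 matched an entry, with 31 promoters in all, and Aurkb, Ccna2, Foxm1, Kif20a and Tpx2 did not. CCAAT occurred in 26 of 31 member promoters (83.9%), where 33.8% of all 32851 promoters of this length hold it. It occurred at 2 or more places in 17 (54.8%), against 10.1% of all promoters. TTTGAA occurred in 11 (35.5%), against 16% of all, and TTTAAA in 5 (16.1%), against 12.1% of all. CCAAT together with TTTGAA or TTTAAA occurred in 13 (41.9%), against 8.78% of all. TTTAAA reads the same on both strands and was counted once per place, and matches to different motifs can share end bases. A match is a description of letters, not of a bound site.

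**Figure D2:**
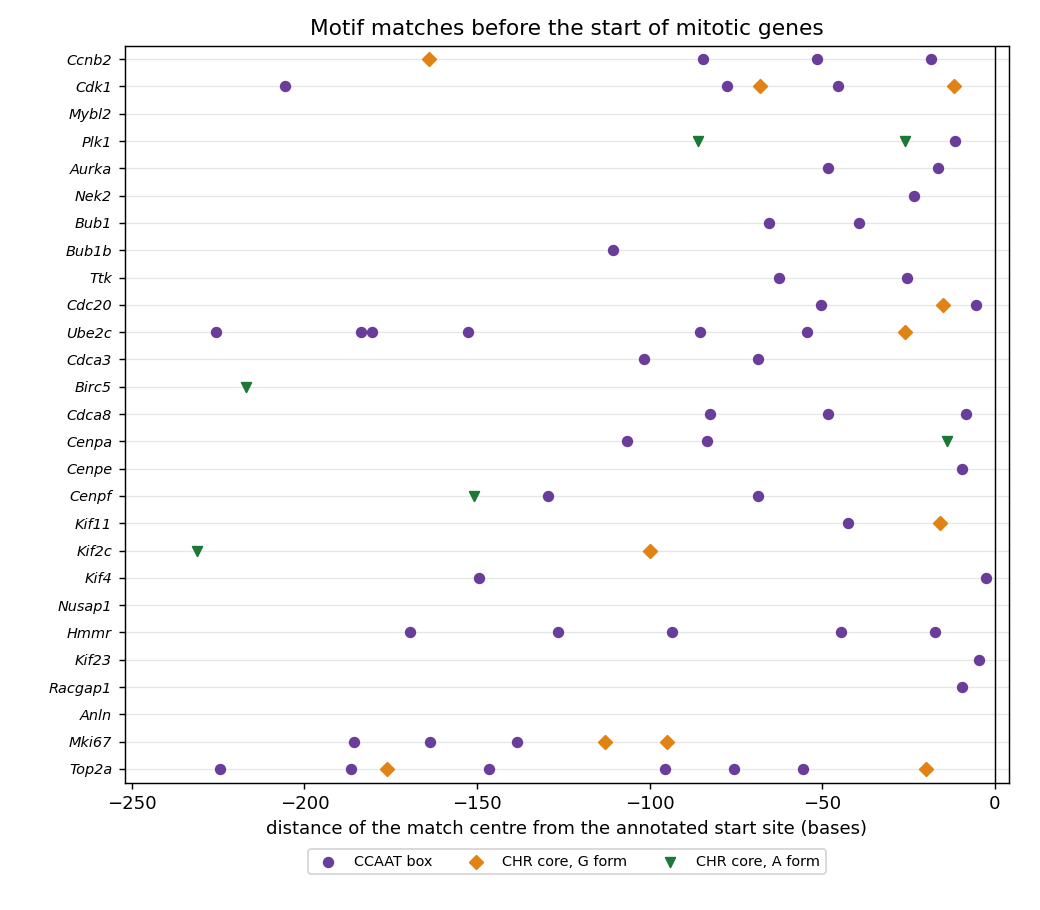
Distance from the annotated start site (x axis, bases) of matches to the CCAAT box (circles) and to the CHR core in its G form (diamonds) and its A form (triangles), on either strand, in mitotic genes with 1 promoter entry. Hmmr has 5 CCAAT matches and Cenpe 1, and the log2 difference was -0.03 in Hmmr and -1.46 in Cenpe. In the other order, Top2a has 6 CCAAT matches and Nek2 1, with differences of -0.86 in Top2a and 0.31 in Nek2. A relation of matches to differences was not tested.

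The genes that bring cells into mitosis had differences between -1.30 and -0.53 on the log2 scale, all 5 of them below 0. Ccna2 encodes cyclin A2, which acts in S phase and at entry into mitosis. It read 277, 237 and 226 in the mutant arrays, against 459.7, 522 and 1019.5 in the wild-type arrays. All mutant arrays lay below all wild-type arrays, with a log2 difference of -1.30 ± 0.31 (SE, limma adjusted p = 0.122). Cdk1, the kinase partner of that cyclin, read 137, 96.3 and 160.2 in the mutant arrays, against 178, 163 and 333 in the wild-type arrays. The Cdk1 groups did not overlap but nearly touched, at -0.67 ± 0.31 (SE, limma adjusted p = 0.383). The cyclin B2 gene Ccnb2 differed by -0.53 with overlapping groups (limma adjusted p = 0.483). Foxm1 and Mybl2, transcription factors that switch on late cell cycle genes, differed by -0.67 and -0.65. Both had a mean signal under 100 in each genotype, and their groups overlapped. Without wild-type replicate 3 the differences were -0.36 for Cdk1 and -0.25 for Ccnb2, and without wild-type replicate 1 that of Ccnb2 was -0.80. The Foxm1 difference ran from -1.10 without mutant replicate 2 to -0.23 without mutant replicate 1.

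Of the kinases Plk1, Aurka and Nek2, which prepare centrosomes and spindle for division, Nek2 was the one member of the 34 with a difference above 0. Nek2 read 218, 166 and 228 in the mutant arrays, against 104, 199 and 194 in the wild-type arrays. Its groups overlapped, wild-type replicate 1 was lowest, and the log2 difference was 0.31, with a 95% interval from -0.34 to 0.96 (limma adjusted p = 0.669). The polo-like kinase gene Plk1 was dim, at 5.01, 33.8 and 23.8 in the mutant arrays, against 88.4, 30.2 and 61.4 in the wild-type arrays. Mutant replicate 2 lay above wild-type replicate 2, and the log2 difference was -1.06 ± 0.41 (SE, limma adjusted p = 0.307). Aurka, the kinase of spindle poles, differed by -0.42 with a limma adjusted p of 0.587. Single arrays moved all 3 values: Plk1 was at -0.69 without mutant replicate 1, Aurka at -0.11 without mutant replicate 2 and Nek2 at 0.04 without wild-type replicate 1.

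The spindle checkpoint genes and those of the anaphase-promoting complex had log2 differences from -1.38 for Bub1 to -0.11 for Cdc20, all 6 of them below 0. Bub1, a checkpoint kinase at kinetochores, read 24.6, 41.6 and 64.1 in the mutant arrays, against 107, 112 and 196 in the wild-type arrays. No mutant array reached a wild-type one, and the mean signal was 3.18 times higher in wild type (log2 difference -1.38 ± 0.32, SE, limma adjusted p = 0.119). The checkpoint genes Ttk (-1.30) and Bub1b (-1.10) had overlapping groups. The value for Ttk, a dim gene, was -2.71 when 1 was added to each signal in place of 16, and -0.58 when 64 was added. In Bub1b the mutant arrays read 52.9 to 63.3, and the wild-type arrays were spread from 60.2 to 336. Cdc20, which activates the anaphase-promoting complex, and Ube2c, its ubiquitin-conjugating enzyme, differed by -0.11 and -0.28, with limma adjusted p values of 0.935 and 0.690. Cdc20 read 282, 289 and 217 in the mutant arrays, against 218, 181 and 568 in the wild-type arrays, so wild-type replicate 3 alone stood above all mutant arrays. Cdca3, which promotes destruction of an inhibitor of Cdk1, differed by -0.95 (limma adjusted p = 0.413). Without wild-type replicate 3 the differences were 0.37 for Cdc20, -0.06 for Ube2c, -0.46 for Cdca3 and -0.52 for Bub1b.

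All 3 centromere genes had mutant arrays below wild-type arrays without overlap, as had 10.0% of all genes. Cenpe, a kinesin that moves chromosomes to the spindle equator, read 43.9, 49.8 and 77.9 in the mutant arrays, against 160.0, 142 and 262 in the wild-type arrays. That is a mean of 57.2 ± 18.2 in mutant and 188 ± 64.6 in wild type (SD, n = 3 each), 3.28 times higher in wild type, and a log2 difference of -1.46 ± 0.28 (SE, limma adjusted p = 0.0753). Cenpa, the histone H3 variant that marks centromeres, read 70.7, 89.9 and 104 in the mutant arrays, against 139.9, 263 and 182 in the wild-type arrays. Its log2 difference was -0.99 ± 0.26 (SE, limma adjusted p = 0.147), and that of Cenpf, a kinetochore protein of late G2, was -1.26 ± 0.33 (SE, limma adjusted p = 0.151). In the chromosomal passenger complex, which corrects faulty attachments, Aurkb read 25.6, 31.6 and 113 in the mutant arrays, against 99.2, 143 and 205 in the wild-type arrays. Mutant replicate 3 overlapped wild-type replicate 1, and the log2 difference of this kinase gene was -1.33 ± 0.46 (SE, limma adjusted p = 0.262). The other passenger genes Cdca8 (-0.63) and Birc5 (-0.58) had limma adjusted p values of 0.335 and 0.352, and Birc5 was at -0.32 without wild-type replicate 3.

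Among the kinesins and spindle proteins, 5 of 6 had an unadjusted limma p under 0.05, against 7.03% of all genes, and 4 had groups that did not overlap, against 10.0%. Kif11, the motor that pushes spindle poles apart, had the smallest p of all members. It read 180.4, 166 and 171 in the mutant arrays, against 306, 421 and 545 in the wild-type arrays. The mutant arrays were close together, with a mean signal of 172 ± 7.47 in mutant and 424 ± 119 in wild type (SD, n = 3 per genotype), and the log2 difference was -1.19 ± 0.23 (SE, limma adjusted p = 0.0753). Tpx2, which starts microtubule growth at chromosomes, read 72.1, 51.2 and 64.5 in the mutant arrays, against 195, 125 and 364 in the wild-type arrays. The chromokinesin gene Kif4 read 33.2, 30.04 and 43.9 in the mutant arrays, against 62.2, 75.7 and 112 in the wild-type arrays. Neither gene's groups overlapped, with log2 differences of -1.52 ± 0.36 for Tpx2 (SE, limma adjusted p = 0.120) and -0.92 ± 0.23 for Kif4 (SE, limma adjusted p = 0.138). The Tpx2 difference was -0.59 with the mean of all its probe sets. Kif2c, a kinesin that takes microtubules apart, differed by -1.17 with overlapping groups (limma adjusted p = 0.335). The microtubule-bundling gene Nusap1 differed by -1.53, with a wide standard error of 0.49 and groups that did not overlap (limma adjusted p = 0.222). Hmmr, which binds hyaluronan and spindle microtubules, differed by -0.03, with a 95% interval from -0.53 to 0.48, and its groups overlapped.

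The 6 cytokinesis genes lay close together, with log2 differences from -0.88 for Racgap1 to -0.73 for Ect2. Racgap1 and the kinesin Kif23 form the centralspindlin complex of the midzone, Prc1 bundles its microtubules, Kif20a carries passenger proteins there, Ect2 activates the contractile ring and Anln is a scaffold of that ring. Of these 6, 5 had an unadjusted limma p under 0.05, against 7.03% of all genes. In Racgap1, Kif23, Prc1 and Anln no mutant array reached a wild-type array, against 10.0% of all genes. Without mutant replicate 2 the difference was -0.46 in Prc1 and -0.26 in Ect2, and without wild-type replicate 3 it was -0.56 in Anln and -0.47 in Ect2. Their limma adjusted p values ran from 0.185 for Racgap1 to 0.522 for Ect2. Mki67, whose protein coats mitotic chromosomes and is the usual stain for cycling cells, read 1141, 866 and 1449.5 in the mutant arrays, against 1926, 2079.6 and 3058 in the wild-type arrays. The Mki67 groups did not overlap, the wild-type mean was 2.04 times the mutant mean, and the log2 difference was -1.02 ± 0.27 (SE, limma adjusted p = 0.147). Top2a, the topoisomerase that untangles sister chromatids, read 276, 148 and 295 in the mutant arrays, against 283, 415 and 683 in the wild-type arrays. Its groups overlapped through mutant replicate 3 and wild-type replicate 1, at -0.86 ± 0.38 (SE, limma adjusted p = 0.359), and the difference was -0.57 without mutant replicate 2, while leaving out wild-type replicate 3 gave -0.54.

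**Figure D3:**
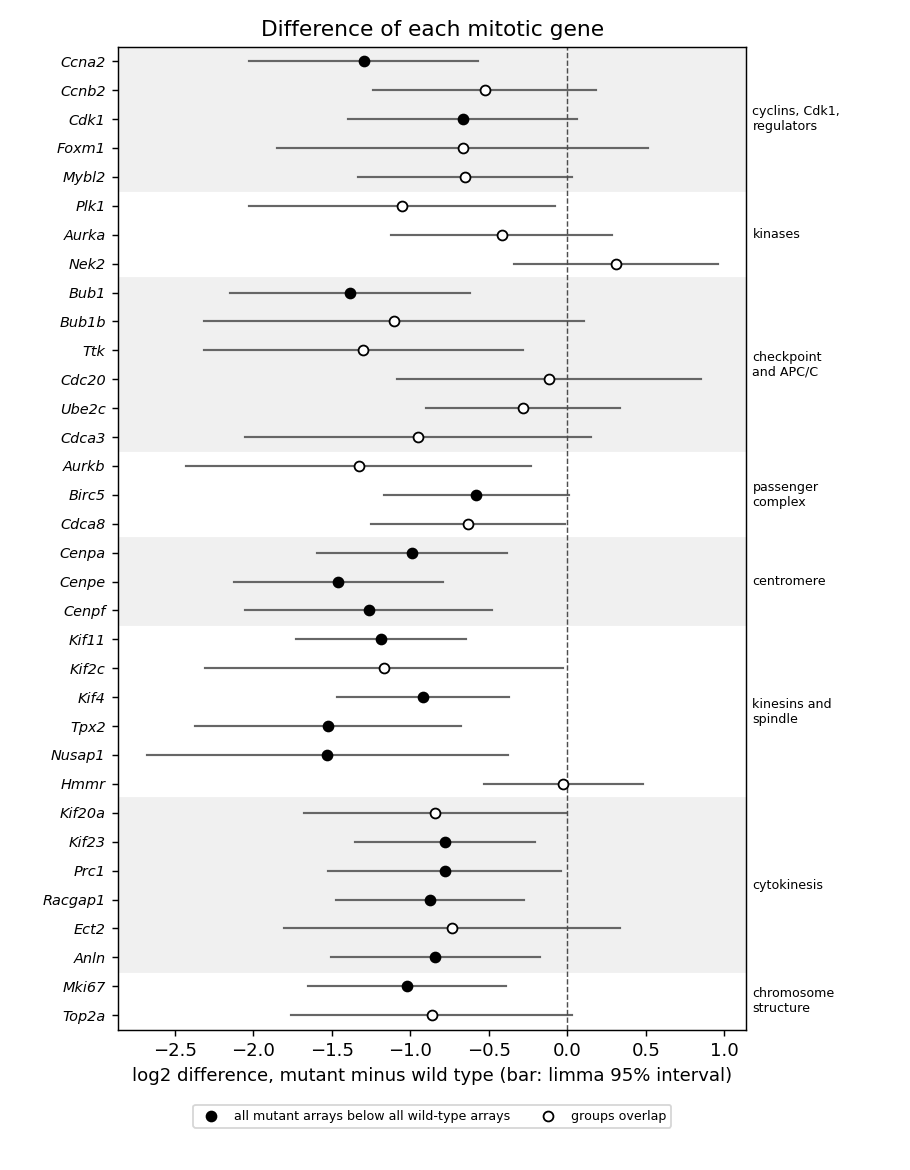
Log2 difference (x axis, mutant minus wild type) of the 34 mitotic genes by role, with bars for the limma 95% interval and filled points where all mutant arrays lay below all wild-type arrays. The interval excludes 0 in 20 genes, the groups do not overlap in 16, and Nek2 is the 1 point right of 0.

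The members with the smallest p stood near the threshold, and their calls moved with the processing. Among the 25 members with a mean signal of at least 100, limma called Cenpe (adjusted p = 0.0388) and Kif11 (adjusted p = 0.0374) lower when genes under that level were left out of the fit, against a background of 1.43% of 11495 genes. With the mean of all probe sets of a gene, limma called Cenpa (adjusted p = 0.0360) and Kif11 (adjusted p = 0.0419), against a background of 0.599%. At an adjusted p under 0.10 the calls were Cenpe and Kif11, against 1.25% of all genes. No member was called by limma when any 1 array was left out, and 3 to 41 of all genes were called lower. In those fits 12 to 22 members had an unadjusted limma p under 0.05, against 2006 to 2617 of all 18193 genes in either direction. Without wild-type replicate 3, 12 members were lower at that unadjusted level, against 5.34% of all genes. In that fit 0.0275% of all genes were called lower at an adjusted p under 0.05.

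Other probe sets of the same genes gave a second look at 25 members, since 9 had 1 probe set. The 46 probe sets that were not chosen had a difference below 0 in 36 cases, but 38 of them had a mean signal under 100. All probe sets pointed the same way, below 0, in 16 of the 25 genes. Kif11 (-1.32 to -1.19 over 3 probe sets), Cenpe (-1.52 and -1.46) and Cenpa (-1.42 to -0.99 over 3 probe sets) were among them. The probe sets of Cdc20 ran from -0.11 to 0.43, those of Nek2 from -0.21 to 0.31 and those of Hmmr from -0.84 to 0.03. For Cdc20, Foxm1, Hmmr and Kif2c the chosen probe set ends in _x_at, a mark Affymetrix gives to probe sets whose probes can match other transcripts, so their signals may hold other RNA. For Aurkb, Bub1b, Cdca8 and Prc1 it ends in _s_at, a mark for probes shared by several transcripts. Their probe sets ran from -1.33 to -0.56 for Aurkb, -1.10 to -0.72 for Bub1b, -0.68 to -0.60 for Cdca8 and -0.78 to -0.46 for Prc1.

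Mitotic genes outside the 35 are given for the rest of the process. Of 63 measured genes of kinetochores, condensin, spindle and mitotic exit, 52 lay below 0, the median difference was -0.37, and limma called 1 lower and 0 higher, against 0.511% and 0.418% of all genes. Below 0 lay 49.2% of all genes. In 19 of the 63 no mutant array reached a wild-type array, against 10.0% of all genes. The called gene was Smc2, a core subunit of condensin, which compacts chromosomes. It read 189, 189.7 and 191 in the mutant arrays, against 424, 409 and 567 in the wild-type arrays. Smc2 fell by 1.21 on the log2 scale (limma adjusted p = 0.0407), a call lost when any 1 array was left out (limma adjusted p 0.0779 to 0.140). Its partner Smc4 (-0.98, limma adjusted p = 0.0515), the checkpoint ATPase gene Trip13 (-0.98, limma adjusted p = 0.0667) and the condensin gene Ncapd2 (-1.41, limma adjusted p = 0.0841) missed the threshold.

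The replication genes, which act before mitosis, had a median difference of -0.47 over 34 measured genes, with 27 below 0, 17 of them at an unadjusted limma p under 0.05, and 1 called lower. Over all genes those shares were 49.2%, 7.03% and 0.511%. In 18 of the 34 no mutant array reached a wild-type array, against 10.0% of all genes and 16 of the 34 mitotic members. The called gene, the licensing factor Cdt1, read 801, 919.7 and 811 in the mutant arrays, against 1886, 2329.5 and 2766 in the wild-type arrays. Its groups stood far apart, and Cdt1 fell by 1.43 on the log2 scale, with a limma adjusted p of 0.0313, and of 0.0533 to 0.131 when any 1 array was left out. The Cdt1 call was also lost with the mean of all its probe sets (limma adjusted p = 0.0910) and with an offset of 1 (limma adjusted p = 0.0803). The checkpoint kinase gene Chek1 (-1.42, limma adjusted p = 0.0671), the polymerase gene Pola1 (-0.77, limma adjusted p = 0.111) and the repressor gene E2f8 (-1.11, limma adjusted p = 0.119) followed. Of 11 genes of the MuvB and DREAM complexes and their pocket proteins, which hold mitotic genes off in resting cells, 0 were called, with 1 at an unadjusted limma p under 0.05. The pocket protein gene Rbl1, itself a cell cycle gene, differed by -1.12 (limma adjusted p = 0.0649). Lin37 (-0.41), Lin52 (-0.68) and Rb1 (-0.49) had limma adjusted p values from 0.469 to 0.495, and the median of the list was -0.16. Of the 11 genes, 8 lay below 0, against 49.2% of all genes, and the highest difference in the list was 0.62.

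Markers of lymphocytes differed between the same arrays. B cell markers were called lower in 8 of 9 measured genes and natural killer cell markers in 7 of 9, with median log2 differences of -2.34 and -2.97, against 0.511% of all genes. When any 1 array was left out, 1 to 4 B cell and 1 to 6 natural killer cell markers were called. Their summed signal was 894 to 1309.5 in the mutant arrays and 5613 to 7096 in the wild-type arrays for B cells, and 2534 to 4365 in the mutant arrays and 13150 to 19938 in the wild-type arrays for natural killer cells. T cell markers were called lower in 2 of 9 genes (Cd8a and Themis) and had summed signals of 4783 to 6265 in the mutant arrays and 7962 to 11459 in the wild-type arrays. Of the markers in these 3 lists, 0 were under a signal of 100 in every array. Wild-type replicate 3, the highest array for the mitotic genes, had a mean log2 level of B cell markers of 8.88, against 8.93 and 9.20 in wild-type replicates 1 and 2. Its level of natural killer cell markers was 9.89, between the 9.50 and 10.06 of wild-type replicates 1 and 2. The part of lymphocytes in the difference of the mitotic genes was not tested.

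Fibroblast markers, 1 of 10 of them called higher, had mean log2 levels of 11.4, 11.6 and 11.5 in mutant replicates 1 to 3, against 11.2, 10.7 and 10.2 in wild-type replicates 1 to 3, so wild-type replicate 3 was lowest in fibroblast markers and highest in mitotic genes. Smooth muscle and pericyte markers had the same order in wild type, with 9.92 to 10.24 in the mutant arrays, against 9.52, 8.62 and 8.20 in wild-type replicates 1 to 3. Their median difference was 1.34, with 0 of 10 called by limma and 9 higher at an unadjusted p under 0.05. Of all 18193 genes, limma called 0.418% higher and 0.511% lower. At an unadjusted limma p under 0.05, 1369 of the 18193 were higher and 7.03% lower. Neutrophil markers had a median difference of 1.56, with 1 of 8 (Mmp8) called higher and 7 higher at an unadjusted limma p under 0.05. The fibroblast marker called was Col1a1, and 5 of 10 were higher at that unadjusted level. Macrophage markers had mean log2 levels of 11.1, 11.5 and 11.4 in mutant replicates 1 to 3, against 12.0, 12.2 and 12.4 in wild-type replicates 1 to 3. In that mean the genotypes did not overlap, and wild-type replicate 3 was the highest array. The median difference of the macrophage markers was -0.29, and 2 of 9 were called lower. These were Fabp1 (-5.00, limma adjusted p = 0.00636) and Siglecf (-2.19, limma adjusted p = 0.0360). The other measured macrophage markers differed by -0.38 (Marco) to 0.25 (Csf1r), so Fabp1 and Siglecf weigh heavily in the list mean. The summed signal of all 9 measured macrophage markers was 41508 to 55065 in the mutant arrays and 53125 to 62829 in the wild-type arrays. Markers of alveolar type 2 cells (0.15), alveolar type 1 cells (0.23), airway cells (0.08) and endothelial cells (0.06) had 0 called by limma in either direction. At an unadjusted limma p under 0.05 those 4 lists held 0, 2, 1 and 1 genes higher and 0, 0, 1 and 0 lower. Summed signals were 43773 to 50012 in the mutant arrays and 20160 to 35003 in the wild-type arrays for fibroblasts, and 12729 to 15917 in the mutant arrays and 4579 to 10839 in the wild-type arrays for muscle and pericytes. For neutrophils they were 23029 to 41012 in the mutant arrays and 10680.3 to 15142 in the wild-type arrays. Of the markers in these 8 lists, Krt5, a basal airway gene, was the one under a signal of 100 in every array. The part of each of these cell types in the result was not tested.

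**Figure D4:**
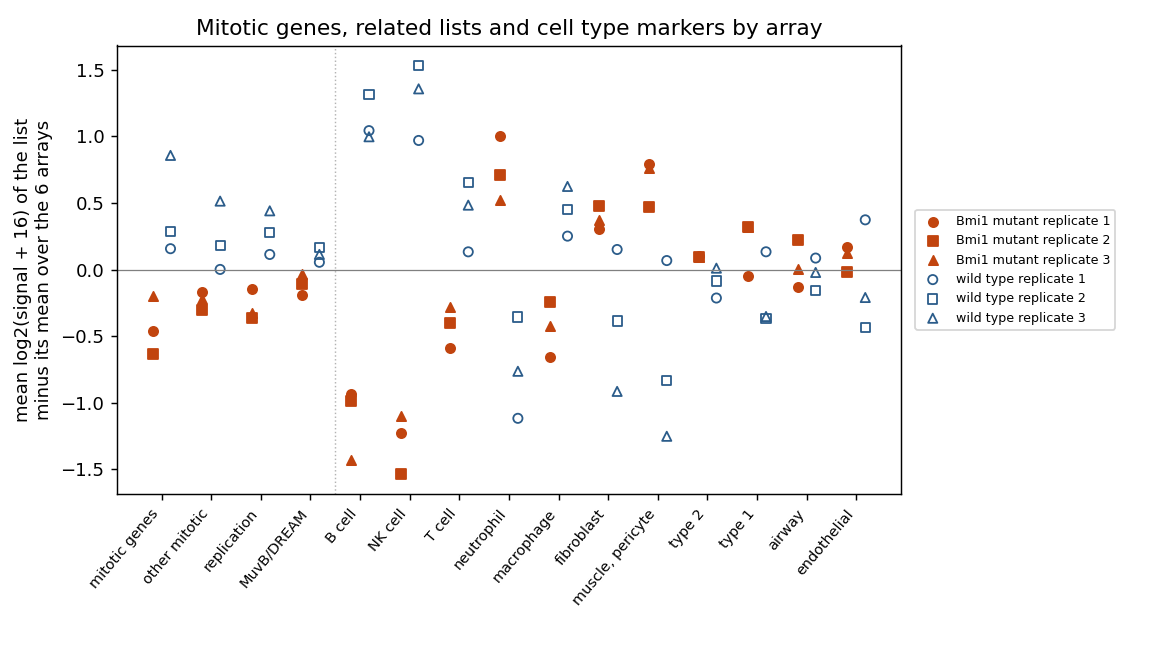
Mean log2(signal + 16) of each gene list minus its mean over the 6 arrays (y axis), with filled symbols for the 3 Bmi1 mutant arrays left of open symbols for the 3 wild-type arrays, for the mitotic genes, 3 related lists and 11 lists of cell type markers (right of the dotted line). The mutant arrays lie below the wild-type arrays for the mitotic genes, the 3 related lists and the B cell, natural killer cell, T cell and macrophage markers. Among macrophage markers, limma called Fabp1 (-5.00) and Siglecf (-2.19) lower, and the other measured ones differed by -0.38 to 0.25. Wild-type replicate 3 is the top array for mitotic genes but the lowest for fibroblast markers.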

How the data were processed

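The authors deposited 1 linear intensity per probe set and array. The submitters' processing notes name Affymetrix Expression Console 1.1. No summarization method, background step or detection call was given in the sources used here. The trimmed mean intensity of every array lay between 500.0023 and 500.0025, so the arrays had been scaled alike, which hides a shift of all genes together. Between 47.7% and 50.3% of probe sets read below 100, and precision is limited by there being 3 arrays a genotype.

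The table held 45101 probe sets. Of these 64 were controls, 34945 carried 1 gene symbol, 932 several and 9160 none. Only those with 1 symbol were used, giving 18193 genes, each through the probe set with the highest mean signal. Signals were turned to log2(signal + 16) and fitted for genotype alone in limma 3.58.1 (lmFit, then eBayes) under R 4.3.3, with Benjamini-Hochberg adjustment over all genes. The offset understates the fold of dim genes. The fit was tested on 12 simulated data sets with known log2 differences of 1 or 2 in some genes. It called 18.1% of the differences of 1 and 67.1% of those of 2, so most differences of 1 went uncalled there.

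The mitotic genes, the other gene lists, the markers and the motifs were chosen with earlier results of these data known, so no count over them is independent support. Values in every array are given for the 8 members with the smallest p, for Mki67, Top2a, Cdk1, Aurkb and Plk1 (Ccnb1 was in the rule too), and for members above 0. Up to 4 genes per related list, those with the smallest p, are named. Ptprc and Pecam1 were named for the sort, and Cdc20, Hmmr, Bub1b and the markers were singled out after their values were seen. Alternatives were other scalings, offsets, filters, probe set rules, variance priors, array weights, a replicate block, another threshold and leaving out each array. Figures were drawn with matplotlib 3.10.9.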

Additional observations from a re-analysis of the deposited data

How the results depend on the processing

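Under the 16 alternatives that refit the genes, 32 of 34 members kept the sign of their difference, and 31 were called in none. The 0 members called lower became 2 with genes under a mean signal of 100 left out, 2 with the mean of all probe sets and 2 at an adjusted p under 0.10, and stayed 0 when any 1 array was left out. The median difference ranged from -1.04 to -0.64 and the members below 0 from 31 to 33 over the 6 arrays left out. Hmmr turned to 0.035 with quantile normalization, 0.011 with median centring and 0.012 with array weights, and ran from -0.17 to 0.090 when 1 array was left out. Cdc20 turned to 0.12 with the mean of all probe sets and ran from -0.42 to 0.37 when 1 array was left out.

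Over all genes, 93 were called lower and 76 higher. The counts were 22 and 16 when the offset was 1, 145 and 121 when it was 64, 164 and 146 without dim genes, 196 and 189 with a trended variance prior and 228 and 232 at an adjusted p under 0.10. When 1 array was left out they ran from 3 to 41 lower and from 3 to 32 higher. The other mitotic genes called lower were 1 in the main setting, 2 with quantile normalization, with a trended prior and with array weights, 3 with an offset of 64 and without dim genes, 6 at an adjusted p under 0.10, and 0 with an offset of 1, with the mean of all probe sets and without any 1 array. The replication genes called lower were 1, against 2 with a trended prior and at an adjusted p under 0.10, and 0 with an offset of 1 and without any 1 array. With the replicate number as a block, limma called 0 genes lower and 0 higher of all genes, 0 of the other mitotic and 0 of the replication genes, with 2618 genes at an unadjusted p under 0.05, among them 20 members. Same-numbered arrays deviated together with correlations of 0.105, 0.0888 and 0.0471, and were not taken as pairs. In these deviations from the group means, each array correlated best, among arrays of the other genotype, with the one of its own number. That is a hint from the data that is not in the design. The cause of these changes was not tested.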
